A study of Mus musculus with 11 samples.

Results

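Sc5d, Fdft1, Hmgcs1, Mvd and Insig1 are 5 genes of sterol synthesis and its regulation, picked by name from the 638 genes that the authors deposited as the progression-specific signature of a mouse leukaemia model. All 5 are positive in that table. Expression was measured on Affymetrix mouse PM arrays in granulocyte-macrophage progenitors (GMPs), the marrow progenitors of granulocytes and monocytes, which had been sorted by surface markers from independent pools of mice. The control group (4 arrays) is labelled MxCre–Ctnnb1(Ex3)fl/+ and carries 1 excisable allele of Ctnnb1, the gene of beta-catenin. The Irf8 KO group (3 arrays) lacks the transcription factor Irf8, a regulator of monocyte fate whose loss gives a CML-like disease in mice, and per the series text also carries the floxed Ctnnb1 allele. The Irf8 KO / b-cat(Ex3) group (4 arrays), called doubly modified below, lacks Irf8 and has exon 3 of that allele excised by a recombinase under the interferon-inducible Mx promoter, which leaves a beta-catenin that escapes degradation. All mice, controls included, received 400 µg of poly(I:C), a double-stranded RNA mimic that induces interferon, on days 0, 3 and 5. Bone marrow was harvested 10 to 14 days later. Mx-driven excision reaches other interferon-responsive cells besides GMPs, and the dash in the control label is read here as the absence of the recombinase. Mice with the excised Ctnnb1 allele and normal Irf8, which the design text mentions, are not analysed here.

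Cholesterol is built from acetyl-CoA through mevalonate, farnesyl diphosphate and squalene. Hmgcs1 makes HMG-CoA at the start of the route, Mvd decarboxylates mevalonate diphosphate in its middle, Fdft1 (squalene synthase) commits farnesyl diphosphate to sterols, and Sc5d introduces a double bond near the end. Insig1 is the brake of the pathway: when sterols are plentiful it holds the complex of Scap and the transcription factor SREBP in the endoplasmic reticulum. When sterols run low SREBP is released and transcribes the synthesis genes and Insig1 itself, and dividing cells draw on this route for membrane.

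Stretches around the transcription start of the members are shown because SREBP is known to act there with NF-Y and Sp1. The RefSeq promoter table of build GRCm38.p6 held 4 of the 5 members (not Fdft1), with 300 bases each, at chr9:42264251-42264550 on the minus strand for Sc5d, chr13:119690101-119690400 on the plus strand for Hmgcs1, chr8:122443373-122443672 on the minus strand for Mvd and chr5:28071162-28071461 on the plus strand for Insig1. Each is written 5′ to 3′ along its gene, and capitals mark every match, on either strand, to the sterol regulatory element TCACNCCAC, the E-box CACGTG and the CCAAT box.
Sc5d: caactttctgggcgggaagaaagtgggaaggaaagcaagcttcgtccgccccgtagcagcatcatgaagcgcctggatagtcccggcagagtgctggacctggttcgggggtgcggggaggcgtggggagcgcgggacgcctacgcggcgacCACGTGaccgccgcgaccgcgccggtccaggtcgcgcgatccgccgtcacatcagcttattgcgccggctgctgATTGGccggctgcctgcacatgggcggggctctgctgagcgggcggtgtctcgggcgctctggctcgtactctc
Hmgcs1: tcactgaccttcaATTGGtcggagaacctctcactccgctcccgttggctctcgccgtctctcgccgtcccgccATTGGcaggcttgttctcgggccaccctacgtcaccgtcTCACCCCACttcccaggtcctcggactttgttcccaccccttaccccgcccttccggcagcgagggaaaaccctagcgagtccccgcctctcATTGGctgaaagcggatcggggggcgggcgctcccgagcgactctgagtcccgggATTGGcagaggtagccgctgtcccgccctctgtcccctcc
Mvd: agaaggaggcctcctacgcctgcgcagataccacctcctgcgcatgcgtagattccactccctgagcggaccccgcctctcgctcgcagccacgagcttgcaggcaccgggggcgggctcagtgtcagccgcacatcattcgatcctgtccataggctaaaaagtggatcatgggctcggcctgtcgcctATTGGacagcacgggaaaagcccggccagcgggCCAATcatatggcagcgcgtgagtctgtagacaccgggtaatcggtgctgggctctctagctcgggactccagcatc
Insig1: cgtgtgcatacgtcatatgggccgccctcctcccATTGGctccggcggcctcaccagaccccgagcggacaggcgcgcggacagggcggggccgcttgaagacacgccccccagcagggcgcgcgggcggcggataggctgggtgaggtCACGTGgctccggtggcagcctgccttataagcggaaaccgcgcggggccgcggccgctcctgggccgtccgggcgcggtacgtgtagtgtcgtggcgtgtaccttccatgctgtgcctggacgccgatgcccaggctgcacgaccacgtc

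The sterol regulatory element matched in Hmgcs1 alone, 137 bases before the start, and in 1.24% of the 32851 promoters of the table. A CCAAT box, the site of NF-Y, stood in all 4 (4 copies in Hmgcs1, 2 in Mvd and 1 each in Sc5d and Insig1), against 37.4% of all promoters. The E-box, which SREBP can also bind, was found in Sc5d and Insig1 and in 7.15% of all promoters. The GC box GGGCGG, the Sp1 site, matched in all 4 and in 35.7% of all promoters. No match overlapped another. A match describes letters in these windows and not a bound site.

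The fold change of the signature was settled from the arrays. All 638 deposited folds equalled the difference of mean log2 intensity, doubly modified minus control, of 1 probe set each among 45037. The largest gap was 2.04e-09 on the log2 scale, the next nearest probe set was at least 8.7e-07 away, and neither of the other 2 group differences gave any match (0 of 638). The signature thus compares the doubly modified group with the controls, and positive means higher in the doubly modified GMPs. The match also ties each gene name of the table to its probe set: 1451457_PM_at for Sc5d, 1438322_PM_x_at for Fdft1, 1433444_PM_at for Hmgcs1, 1448663_PM_s_at for Mvd and 1454671_PM_at for Insig1. The files name no other probe sets, so further probe sets of these genes were not used here. The x and s in such names mark sets whose probes may match more than 1 transcript, which touches Fdft1 and Mvd. The same limit holds for the x sets of Scarb1 and Aifm2, both named below.

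The authors' deposited table gives log2 fold changes of 1.10 for Sc5d (p = 1.45e-05), 1.06 for Fdft1 (p = 0.00147), 0.79 for Hmgcs1 (p = 0.00146), 0.73 for Mvd (p = 0.000399) and 0.71 for Insig1 (p = 0.000731). These values chose the genes and are descriptions. Fdft1 and Hmgcs1 lie just inside the largest p of that table of the authors, 0.0016, and Insig1 is the member nearest to its smallest absolute log2 fold change, 0.586. By deposited fold in the authors' table the members take places from 132 for Sc5d to 310 for Insig1 among the 394 positive genes.

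Irf8, the targeted gene, had log2 intensities of 9.39, 9.45, 9.78 and 9.22 in the controls, 8.61, 7.88 and 8.93 in the Irf8 KO arrays and 8.32, 8.58, 7.51 and 7.74 in the doubly modified arrays. Both knockout groups lay wholly below the controls, by 0.99 ± 0.28 (SE) and 1.42 ± 0.26 on the log2 scale, and Irf8 signal persisted. The first difference did not pass (limma, adjusted p = 0.12). Where the probes lie relative to the deleted part is unknown, so this does not check the labels. The array medians of the deposited values ran from 3.92 to 4.09 on the log2 scale. Array correlations within groups averaged 0.979 to 0.991. The lowest of the doubly modified group was array 2 (0.979) and the lowest of the controls array 4 (0.985), while doubly modified array 3 (0.982) lay between these values. Results without the lowest array of each of these groups, a choice made after the data were seen, are given below where they change a call. The labels call the arrays biological replicates.

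Below, unless the deposited values are named, a level is a log2 intensity after quantile normalization of the 11 arrays. The first step is Irf8 KO minus control and the second step doubly modified minus Irf8 KO. The 2 steps add up to the difference that chose the genes, share its control and its doubly modified arrays, and so are not independent of the choice. In sorted bulk cells, a change in the share of a cell type and a change of RNA per cell cannot be told apart. Differences are given with the standard error of limma's fit over all 45037 probe sets, and p-values are adjusted over all of them by Benjamini-Hochberg with a threshold of 0.05.

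Hmgcs1, which makes HMG-CoA, stood at 6.10, 5.77, 6.01 and 6.19 in the controls, 6.04, 6.41 and 6.48 in Irf8 KO and 6.89, 7.29, 6.63 and 6.21 in the doubly modified GMPs. Doubly modified array 4 was at the level of the highest control, and the other three stood above every array of the other groups. The group means were 6.02 ± 0.18 (SD, n = 4), 6.31 ± 0.24 (SD, n = 3) and 6.76 ± 0.45 (SD, n = 4). The first step was 0.29 ± 0.22 (limma, adjusted p = 0.64) and the second 0.45 ± 0.22 (limma, adjusted p = 0.73). Neither passed, and the second was 0.27 without doubly modified array 2.

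Mvd, which makes isopentenyl diphosphate, had levels of 5.69, 5.54, 5.87 and 6.05 in the controls and 5.69, 5.95 and 5.63 in Irf8 KO. Its doubly modified arrays stood at 6.81, 6.60, 6.51 and 5.98. The Irf8 KO arrays lay inside the control range, and all doubly modified arrays lay above every Irf8 KO array, the fourth by a narrow margin and below control array 4. The first step was −0.03 ± 0.19, with a 95% interval from −0.43 to 0.38 (limma, adjusted p = 0.97). The second step was 0.72 ± 0.19, a 1.64-fold difference, with an unadjusted p of 0.00235 that did not pass (limma, adjusted p = 0.46).

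Fdft1, the squalene synthase, measured 5.27, 5.84, 5.39 and 6.05 in the controls, 5.88, 6.43 and 5.64 in Irf8 KO and 6.74, 6.60, 6.84 and 6.49 in the doubly modified arrays. The doubly modified arrays were tightly grouped (SD 0.15, n = 4) and did not overlap either other group. The margin to Irf8 KO array 2 was narrow (6.49 against 6.43). Irf8 KO spread over much of the range between (SD 0.41, n = 3). The first step was 0.35 ± 0.21 (limma, adjusted p = 0.55), and it was 0.12 without Irf8 KO array 2. The second step, 0.68 ± 0.21 or 1.60-fold, had an unadjusted p of 0.0078 and did not pass (limma, adjusted p = 0.55).

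Sc5d, the late desaturase, had the largest first step of the 5. Its levels were 5.65, 6.14, 5.81 and 6.33 in the controls, 6.81, 6.76 and 6.31 in Irf8 KO and 6.91, 6.72, 7.23 and 7.29 in the doubly modified GMPs. Irf8 KO arrays 1 and 2 stood above all controls and reached the lower doubly modified arrays, and array 3 was level with control array 4. The first step was 0.65 ± 0.20, 1.56-fold (limma, adjusted p = 0.15), and the second 0.41 ± 0.20 (limma, adjusted p = 0.72), which was 0.25 without Irf8 KO array 3. The first step passed with array weights, at 0.70 (limma, adjusted p = 0.048), and without control array 4 and doubly modified array 2, at 0.76 (limma, adjusted p = 0.042). Control array 4 was the highest Sc5d control, so leaving it out could only raise the first step. Over its 20 alternatives the adjusted p of limma ran from 0.042 to 0.43.

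Insig1, the sterol-sensing brake, was nearly constant in the controls at 6.55, 6.54, 6.53 and 6.72. It stood at 6.74, 6.90 and 6.78 in Irf8 KO and at 7.13, 7.09, 7.85 and 6.81 in the doubly modified arrays. Every Irf8 KO array exceeded every control, by little, and doubly modified array 4 fell within the Irf8 KO range. In the deposited values, control array 4 (6.75) stood above Irf8 KO arrays 1 (6.73) and 3 (6.74), so the 2 groups overlapped there. The first step was 0.23 ± 0.19 (limma, adjusted p = 0.70) and the second 0.41 ± 0.19 (limma, adjusted p = 0.72). Doubly modified array 3 carried much of the second step, which was 0.20 without it.

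**Figure D1:**
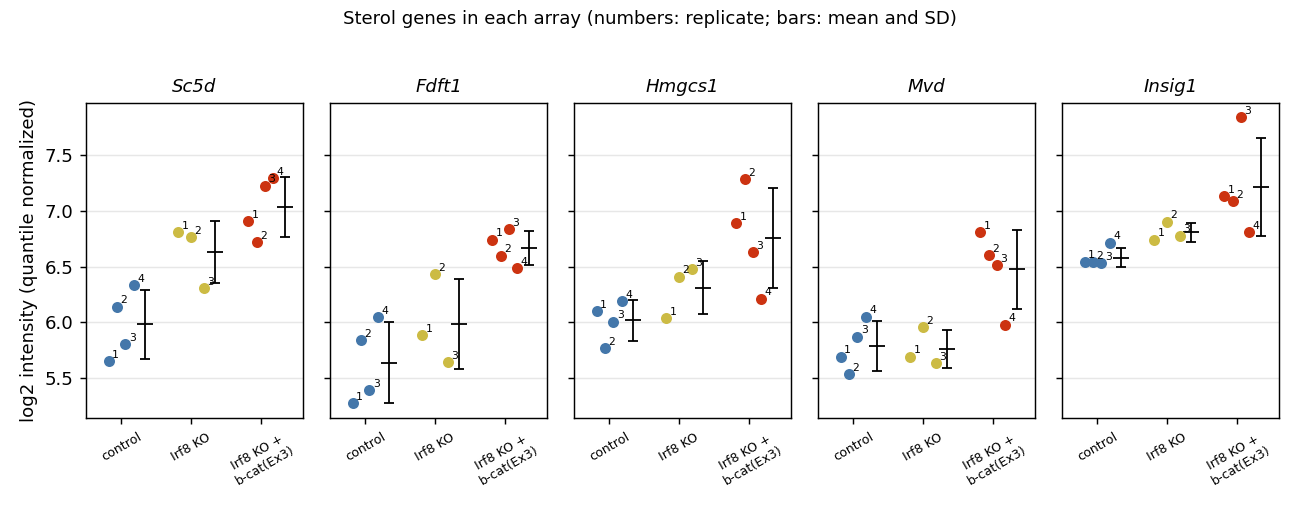
Log2 intensity (vertical axis, quantile normalized) of the 5 sterol genes in every array, by group, with replicate numbers beside the points and the group mean and SD beside each group. Doubly modified arrays lie above every control in Sc5d, Fdft1, Hmgcs1 and Insig1, while in Mvd array 4 (5.98) lies below control array 4 (6.05).

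Counted over the 5 genes, 4 had every doubly modified array above every control (6.58% of all probe sets and 94.9% of the 394 positive signature genes did). That count rests on the contrast that chose them. For the second step, 2 of 5, Fdft1 and Mvd, had all doubly modified arrays above all Irf8 KO arrays, against 3.76% of all probe sets and 25.4% of the positive signature genes. For the first step it was 1 of 5, Insig1, against 6.82% and 57.1%. In the deposited values Insig1 did overlap in that step. By limma's adjusted p, 0 of 5 passed in the first step, where 1.8% of probe sets passed in either direction, and 0 of 5 in the second, where 0.00444% did. At an unadjusted p under 0.05, limma gave 1 of 5 in the first step (Sc5d; 6.69% of all probe sets were positive at that level and 75.9% of the positive signature genes) and 2 of 5 in the second (Fdft1 and Mvd; 3.81% and 34.5%).

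The median first step of the 5 was 0.29, against 0.58 over the 394 positive signature genes and 0.01 over all probe sets. Their median second step was 0.45, against 0.32 and 0.00500 in the same sets. By first step Sc5d took place 163 of the 394 positive genes, above their median, and the other four stood low, at places 327 (Fdft1), 359 (Hmgcs1), 375 (Insig1) and 392 (Mvd). By second step their places were 48 (Mvd), 54 (Fdft1), 121 (Hmgcs1), 142 (Insig1) and 143 (Sc5d). As shares of the whole difference, the second step made up 38.9% in Sc5d, 60.4% in Hmgcs1, 64.6% in Insig1, 66.2% in Fdft1 and 104.1% in Mvd.

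Whether the steps differ was tested by a contrast added after the data were seen, the second step minus the first. It weights control and doubly modified arrays alike, so the difference that chose the genes cancels in it. The same arrays enter it, and their spread may have entered the authors' p limit, so it is not free of the choice. The value was 0.74 ± 0.33 for Mvd (95% interval 0.02 to 1.46), 0.33 ± 0.38 for Fdft1, 0.19 ± 0.34 for Insig1, 0.15 ± 0.38 for Hmgcs1 and −0.23 ± 0.35 for Sc5d. None passed (0 of 5, limma, adjusted p from 0.68 to 0.97, against 0.0999% of probe sets), and at an unadjusted p under 0.05 limma gave 1 of 5, Mvd, at 0.0437 (3.69% of all probe sets and 1.27% of the positive signature genes were positive at that level). The contrast was above 0 in 4 of 5 members and in 26.4% of the positive signature genes. Leaving out 1 array turned its sign in 3 of those 4, to −0.011 in Fdft1 (Irf8 KO array 3), −0.12 in Hmgcs1 (Irf8 KO array 1) and −0.023 in Insig1 (doubly modified array 3), and not in Mvd (0.62 to 0.94). Whether the first step entered the choice of the signature is not stated. Of its 638 probe sets, 530 met its fold and p limits in limma's fit, and 22.1% of these passed in the first step, against 48.4% of the 1109 probe sets outside it that met the same limits. The part of such a choice in these shares, in the places and in the contrast of the steps was not tested.

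**Figure D2:**
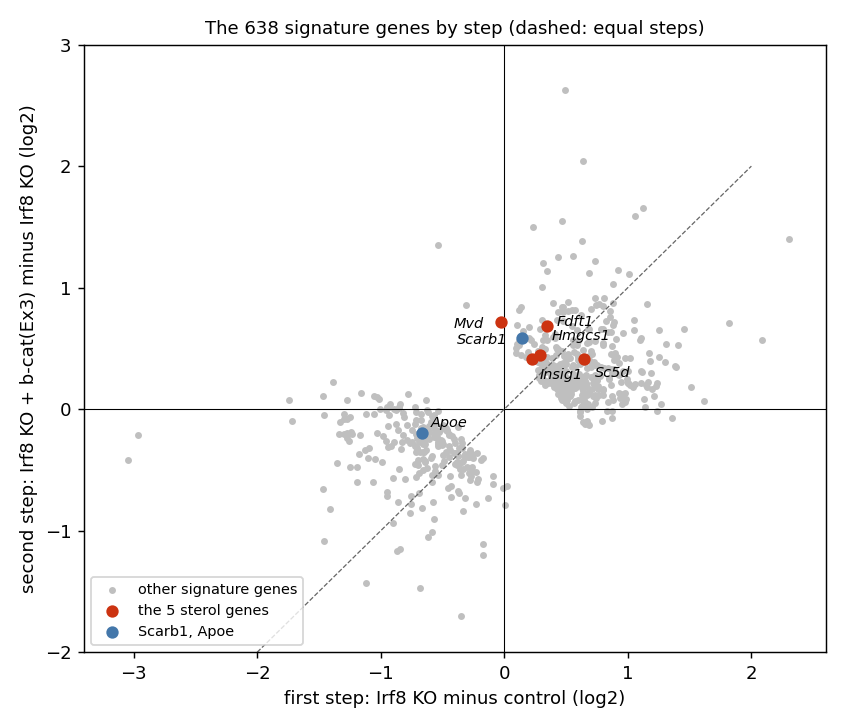
Each point is 1 of the 638 signature genes, with the first step on the horizontal and the second step on the vertical axis, both as log2 differences, and the dashed line marks equal steps. Mvd (−0.03 and 0.72) and Fdft1 (0.35 and 0.68) lie above the line, and Sc5d (0.65 and 0.41) lies below it.

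Other genes of the pathway could be followed where the signature names them. Of 20 mevalonate and sterol synthesis enzymes considered, 4 were listed, all positive: the 4 enzymes above. Of 12 genes of sterol sensing and SREBP regulation only Insig1 was listed. Of 10 uptake and transport genes considered 1 was, the positive Scarb1, a receptor for high-density lipoprotein. Of 11 genes of sterol efflux, storage and the oxysterol receptor LXR 1 was, Apoe, which was negative. None of 14 fatty acid synthesis genes, 11 genes of the isoprenoid branches or 20 cell cycle genes was listed (0 in each). The files name no probe set for Sqle, Srebf1, Srebf2 or Insig2, nor for Ctnnb1, so these are not analysed here, and absence from the table does not show that a gene was unchanged. These lists were written with earlier results of the data known, so the counts are no independent evidence of direction.

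Scarb1, which falls outside the naming rule and was picked after its values were seen, stood at 5.97, 6.21, 5.82 and 6.28 in the controls, 6.03, 6.43 and 6.18 in Irf8 KO and 6.75, 7.09, 6.79 and 6.55 in the doubly modified arrays. The Irf8 KO arrays spread over the control levels, and the doubly modified arrays lay above both groups without overlap. Its first step was 0.14 ± 0.16 (limma, adjusted p = 0.79), and it ran from 0.032 without Irf8 KO array 2 to 0.236 without array 1. Its second step was 0.58 ± 0.16, with an unadjusted p of 0.00293, and did not pass (limma, adjusted p = 0.46). The second step minus the first was 0.44 ± 0.28 (limma, adjusted p = 0.82).

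Apoe, the lipoprotein component made under LXR, moved the other way. It measured 4.95, 4.82, 4.79 and 5.02 in the controls, 4.02, 4.41 and 4.25 in Irf8 KO and 4.13, 4.25, 3.75 and 4.01 in the doubly modified arrays. Both knockout groups lay below all controls and overlapped each other. Apoe fell in the first step, by 0.67 ± 0.14 on the log2 scale (limma, adjusted p = 0.028), and its second step was −0.19 ± 0.14 (limma, adjusted p = 0.80). The first call was lost without control array 1, 2, 3 or 4 or Irf8 KO array 1 or 3, one at a time, and with a block for the replicate number, with an adjusted p of up to 0.145 in limma, and over all alternatives it ran from 0.0121 to 0.145. In the second step, the interferon-induced Oas3 was the only named gene to pass, at 2.63 ± 0.31 (limma, adjusted p = 0.043).

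**Figure D3:**
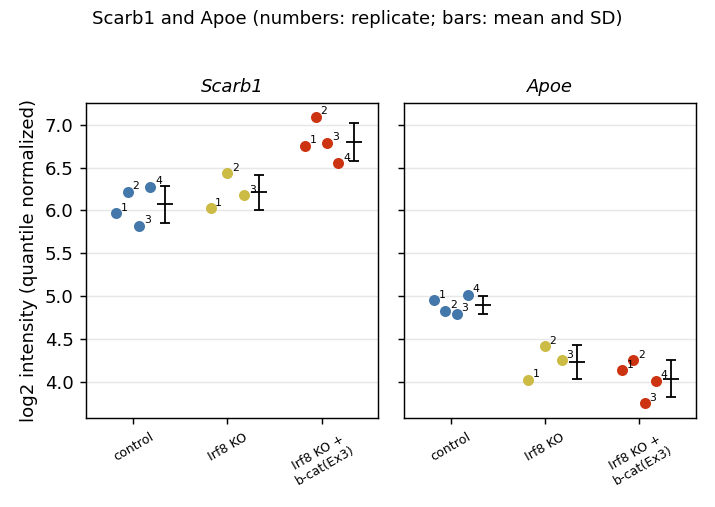
Log2 intensity (vertical axis, quantile normalized) of Scarb1 and Apoe in every array, by group, with replicate numbers beside the points and the mean and SD beside each group. In Scarb1 the 4 doubly modified arrays lie above all others, and in Apoe both knockout groups lie below the controls.

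The 5 genes were not equally variable together. Over the 11 arrays their 10 pairwise Pearson correlations ran from 0.46 (Sc5d with Hmgcs1) to 0.89 (Sc5d with Fdft1). These are descriptions of arrays that share their groups. After each group's mean was removed they ran from −0.60 (Sc5d with Hmgcs1) to 0.71 (Hmgcs1 with Mvd), with 0.67 for Sc5d with Fdft1. Control array 4 was the highest control in 5 of 5 members, and doubly modified array 4 the lowest of its group in 4 of 5, Sc5d being the exception with its highest value there.

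Among named probe sets above the median intensity, those most like the mean of the z-scored members over the 11 arrays were Nlrx1, a mitochondrial NLR family protein (Pearson r = 0.972), Aifm2, an oxidoreductase of coenzyme Q (0.957), 1810021B22Rik (0.935), Zfp819 (0.935) and Agfg2 (0.929). No unnamed probe set reached the correlation of Nlrx1 (0). The named genes had themselves been chosen for the difference between doubly modified and control arrays, and r is a description with no test.

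Mvd lies on chromosome 8, the chromosome of the deleted Irf8, with 21 protein-coding genes between them in the RefSeq order of GRCm38.p6. Among the 10 genes on each side of Irf8 the signature listed Crispld2, a secreted protein (first step 0.43, second 1.25), and among the 10 on each side of Mvd it listed Aprt, an adenine salvage enzyme (0.09 and 0.46). Of the 8 listed among the 50 on each side of Irf8, 7 were positive in the first step and 8 in the second, against 99.2% and 96.4% of the positive signature genes. Positive steps follow from how these genes were chosen, and the signature's share of genes outside this window was not counted. Tcf25, at the far end of that window and named after its values were seen, alone passed in the first step, at 0.71 (limma, adjusted p = 0.025), with 0.02 in the second. Whether the place of Mvd near Irf8 bears on its levels was not tested.

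**Figure D4:**
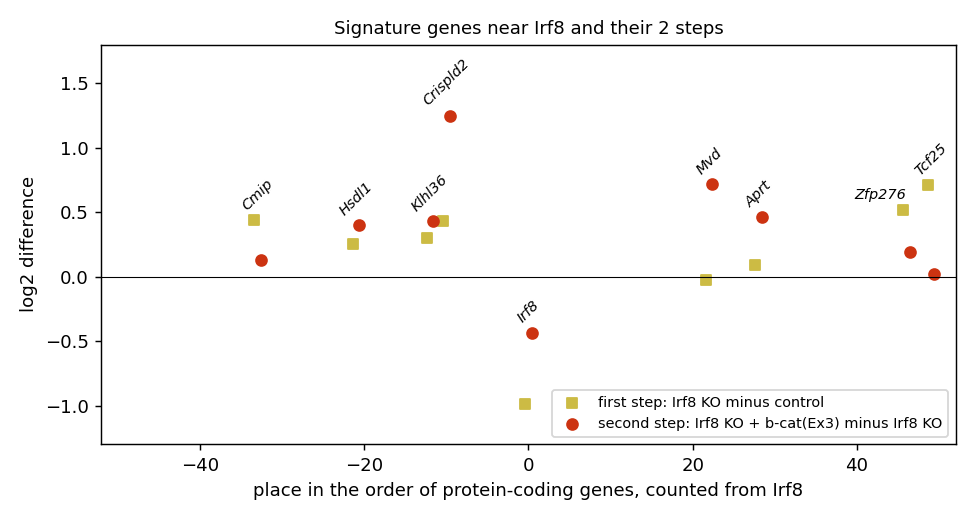
Log2 differences of the first step (squares) and second step (circles) for Irf8 and the 8 signature genes within 50 places of it, against place in the order of protein-coding genes (horizontal axis, Irf8 at 0). Mvd, 22 places away, has −0.03 and 0.72, and Tcf25 has 0.71 and 0.02.

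Markers of other cells could be followed only where the signature lists them, that is, where they were chosen for differing between doubly modified and control arrays, so that difference in them is a description. None of the 10 markers of GMPs themselves was named in the files (0), so the sorted identity could not be checked on them. No deposited value was at 0 (the lowest log2 value was 0.987), which does not show that a gene was detected. Each sum below is the log2 of the summed linear intensities of the listed markers, in which the brightest weighs most. For the 2 listed of 12 mature neutrophil markers, Cd177 and Csf3r, it was 6.60 to 7.73 in controls. It was 7.79 to 8.41 in Irf8 KO and 8.20 to 9.85 in doubly modified arrays. The 3 listed of 10 stem cell markers (Cd27, Hoxa9 and Tal1) summed to 8.11 to 8.47, 7.42 to 8.48 and 5.90 to 7.19 in the same order, lowest in the doubly modified GMPs. For the 2 of 10 erythroid and megakaryocyte markers, Car1 and Gata1, the sums were 5.97 to 7.16 in controls, 4.20 to 4.46 in Irf8 KO and 4.04 to 4.35 in doubly modified arrays. The 4 of 11 monocyte and macrophage markers, Adgre1, Cd14, Fcgr4 and Klf4, differed in direction in the signature, with 3 positive and 1 negative. Their sum was 7.86 to 8.34 in controls and 6.78 to 7.69 in Irf8 KO, wholly below the controls. It was 7.36 to 8.46 in doubly modified arrays, which overlapped both. This sum does not show that each of these markers moved so. The 2 of 9 eosinophil, basophil and mast cell markers went from 8.51 to 9.37 in controls to 8 to 8.32 in Irf8 KO and 7.25 to 7.98 in doubly modified arrays. Of 8 dendritic cell and 10 lymphoid markers 1 each was listed, Tcf4 (6.36 to 6.67, 6.24 to 6.82 and 5.70 to 6.11) and Thy1 (3.02 to 4.52, 2.81 to 2.90 and 2.15 to 2.79). In both knockout groups Thy1 lay below every array median of the deposited values (3.92 to 4.09), and the Car1 and Gata1 sum lay near these medians. The part of such cells in the sterol gene levels was not tested.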

How the data were processed

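The arrays' values are log2 intensities per probe set, deposited by the authors for 45037 probe sets and 11 arrays. Per the labels' protocols, under 20 ng of total RNA was amplified to cDNA. How the authors summarised and normalized them is not stated in the sources used. Per the file headers, their deposited signature lists 638 genes with the log2 fold change, the signed linear fold and the p-value of each. The test behind these deposited p-values is not given either.

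Folds were matched to probe sets within 1e-08 on the log2 scale. Entrez identifiers matched the RefSeq gene table in 621 rows. Since array medians differed by 0.172, over the 0.1 allowed, arrays were quantile normalized and the deposited scale became an alternative. Groups were compared with limma 3.58.1 in R 4.3.3 (lmFit, eBayes, group only, no filter), checked on simulated data. No probe annotation was used, so averaging a gene's probe sets and counts over whole pathway lists were not run. Some genes of the lists are not reported here and were left out of their counts.

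Members, lists and tests were chosen with earlier results of these data known. Named genes were the members, listed sterol genes called in any contrast, set regulators, the most changed called gene of each other list, called neighbours of Mvd, and the 5 most correlated genes. The number of arrays limits the precision.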

Additional observations from a re-analysis of the deposited data

Results flagged for a closer look

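Of 14 sets of 4 arrays checked for an array standing apart (7 listed sterol genes in the control and the doubly modified group), 1 was picked out. Insig1 in control array 4, at 6.72, stood above the other three controls, which lay within 6.53 to 6.55. Chance alone flags about 1 in 20 sets of this size. The first step of Insig1 was 0.27 without that array, against 0.23 with it (limma, adjusted p = 0.70 with it).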

How the results depend on the processing

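Of 413 recomputed differences of single sterol genes in the tested contrasts, 394 kept their direction and their side of the threshold. The 140 between doubly modified and control, the difference that chose the genes and was not tested, kept their direction and moved by less than 1 SD. Many alternatives cannot change a difference, such as leaving out an array of a group not compared. Both counts therefore overstate stability. No member (0 of 5) passed limma in the second step, or in the second step minus the first, under any alternative run. In the first step 1 member, Sc5d, passed with array weights and without control array 4 and doubly modified array 2 (1 of the listed sterol genes in each). Each difference that changed sign was smaller than its standard error in the main fit. The first step of Mvd, −0.03, became 0.060 without control array 4, 0.0057 and 0.035 without Irf8 KO array 1 or 3 (−0.125 to 0.060 over single arrays left out), 0.040 with array weights and 0.060 without both doubted arrays. The second step minus the first became −0.011 for Fdft1 without Irf8 KO array 3 (up to 0.78), −0.023 for Insig1 without doubly modified array 3 (up to 0.32), and for Hmgcs1 −0.12 without Irf8 KO array 1, −0.023 without doubly modified array 2 (up to 0.34) and −0.081 without both doubted arrays. The cause was not tested.

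Over all probe sets, limma called 809 in the first step (370 to 1062 with 1 array left out, 1700 with array weights, 1565 without both doubted arrays) and 2 in the second (1 to 8, 0 with only the 2 groups compared, 9 without both doubted arrays). It called 2712 between doubly modified and control (1421 to 3416, 4376 with array weights, 3768 without both doubted arrays) and 45 for the second step minus the first (10 to 62, 69 with an intensity trend and robust prior, 66 without both doubted arrays). Replicate numbers did not pair the arrays: 1 of 10 same-number pairs had correlated deviations above 0.1, from −0.231 to 0.163. With the replicate block, limma called 663, 2, 2395 and, for the second step minus the first, 13. Averaging a gene's probe sets was not run, for want of names. Leaving out both doubted arrays, the contrast of the steps and the swap of main and deposited scale were decided after the data were seen.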
